A study of Mus musculus with 4 samples.

Results

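RANKL, RANK and osteoprotegerin are a ligand, its receptor and its decoy receptor, encoded in the mouse by Tnfsf11, Tnfrsf11a and Tnfrsf11b. They were followed in synovial fibroblast cultures on 1-colour Affymetrix arrays through every probe set that the platform's annotation gives to 1 of these 3 genes alone. There were 6 such probe sets, 2 for each gene, of 22690 on the array. Per the labels, the cells came from the knees of male DBA/1J mice of 8 to 12 weeks without arthritis and were used after 3 to 4 passages, in medium with 1% serum. The dishes were treated for 6 h with IL-1β at 5 ng/ml, indomethacin at 1 µM and iloprost at 1 µM together (IL-1β and both drugs), with IL-1β and indomethacin, with IL-1β alone, or with vehicle. Each treatment has 1 dish and 1 array, and how many mice gave the cells is not stated in the sources used here. No value below therefore has an error between dishes or a test, and every difference describes these 4 dishes.

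RANKL is a membrane-bound or shed cytokine of the TNF superfamily that stromal cells, osteoblast-lineage cells and activated T cells make. By binding RANK on myeloid precursors it drives them, together with M-CSF, to become osteoclasts, the cells that resorb bone. Osteoprotegerin is a secreted receptor that captures RANKL and keeps it from RANK, so the balance of both is taken as a measure of the drive to bone loss in an inflamed joint. Prostaglandins are known inducers of RANKL in stromal cells through cAMP. Indomethacin blocks the cyclooxygenases that make prostanoids. Iloprost acts in place of prostacyclin, whose receptor also raises cAMP.

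The cultures held fibroblast and myeloid RNA. All 12 fibroblast markers, such as the collagen gene Col1a2, and all 10 macrophage markers, such as the M-CSF receptor gene Csf1r, had signals over 37.6, the median of all values on the arrays and the floor used here, on every array. The summed signal of the macrophage markers ran from 21378 to 25582 and that of the fibroblast markers from 25551 to 28097. Of 7 T cell markers, 4 B cell markers, 6 endothelial markers and 8 osteoblast markers with a probe set, 0 were above the floor on any array. The T cell genes Cd3e and Cd3g, for instance, had signals of at most 3.7 and 4.5. The arrays differed in brightness, so ratios are log2 values relative to the median gene among 6222 genes above the floor on all 4 arrays. Signals below the floor were set to it, which makes a ratio with 1 array at the floor a bound. In cultures of mixed cells, fewer cells of a type and less RNA per cell cannot be told apart.

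Tnfsf11, the ligand gene, was high on the 2 arrays with IL-1β and both drugs or with IL-1β alone, and below the floor on the other 2. Probe set 1419083_at had a signal of 165.7 with IL-1β, indomethacin and iloprost, 23.8 with IL-1β and indomethacin, 198.9 with IL-1β and 10.9 with vehicle. Probe set 1451944_a_at read 73.3 with both drugs, 12.4 with indomethacin, 72.5 with IL-1β and 6.9 with vehicle. Both probe sets thus placed the same 2 arrays above the floor and the same 2 below it. They read the same RNA from the same dishes, so this is no replicate of the treatments. By rank within its own array, 1419083_at lay above 77.1% of all probe sets with both drugs, 43.7% with indomethacin, 78.3% with IL-1β and 32.4% with vehicle.

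**Figure D1:**
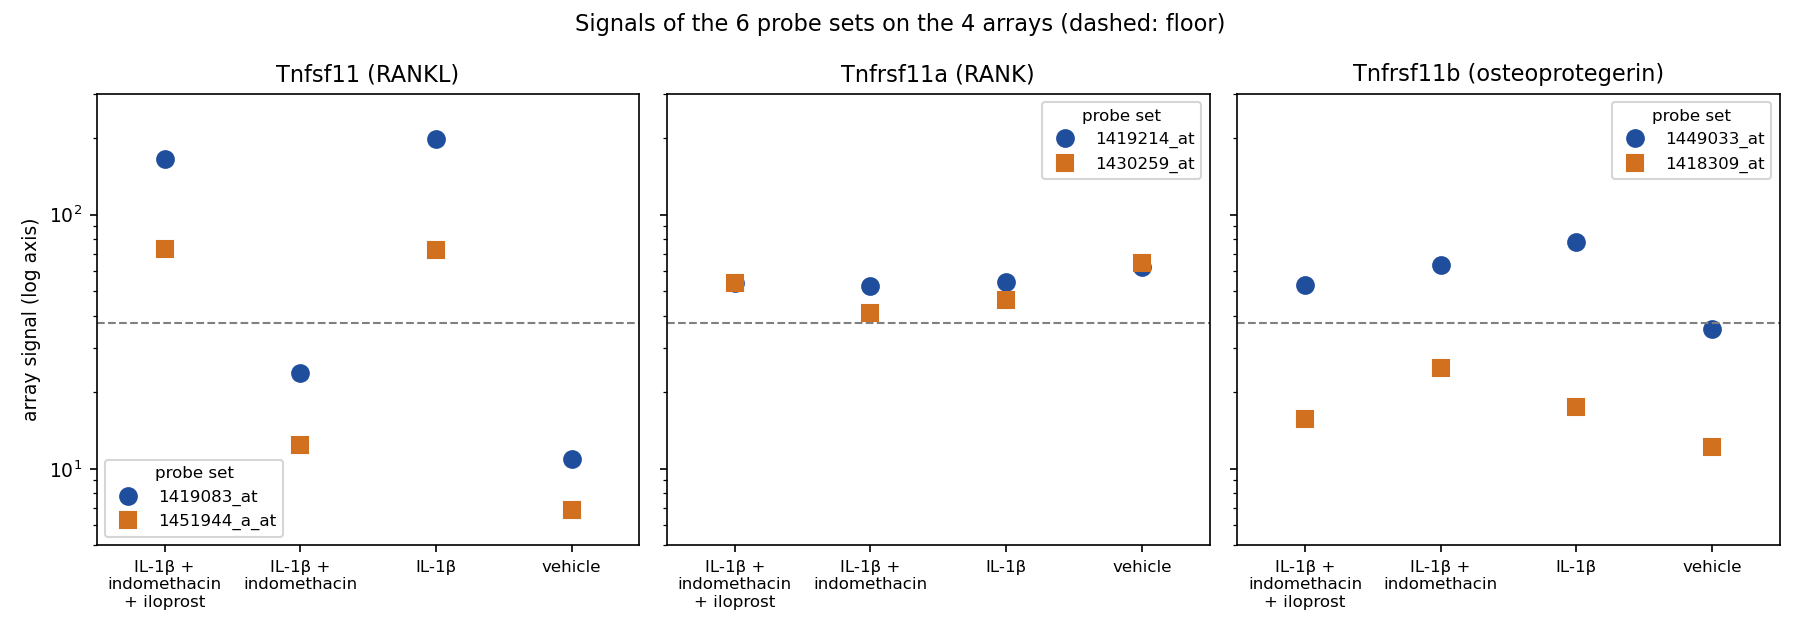
Array signals (log axis) of the 2 probe sets of each gene on the 4 arrays, 1 array per treatment, with the floor of 37.6 dashed. Both Tnfsf11 probe sets are above the floor with IL-1β and both drugs, and with IL-1β alone, and below it on the other arrays, while Tnfrsf11a stays between 41.2 and 64.4.

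Of the 3 genes, Tnfsf11 and Tnfrsf11a have an entry in the RefSeq promoter table of build GRCm38.p6, and their promoter windows are shown. Whether these sequences bear on the signals across the treatments was not tested. Each window runs from 250 bases before to 50 bases after the start annotated for that promoter, in the direction of the gene. For Tnfrsf11a the RefSeq gene itself begins upstream of that start, at 105780673. Capitals mark the matches found among the motifs searched. Tnfsf11 is on the minus strand at chr14:78307994-78308293 and Tnfrsf11a on the plus strand at chr1:105780473-105780772.
Tnfsf11: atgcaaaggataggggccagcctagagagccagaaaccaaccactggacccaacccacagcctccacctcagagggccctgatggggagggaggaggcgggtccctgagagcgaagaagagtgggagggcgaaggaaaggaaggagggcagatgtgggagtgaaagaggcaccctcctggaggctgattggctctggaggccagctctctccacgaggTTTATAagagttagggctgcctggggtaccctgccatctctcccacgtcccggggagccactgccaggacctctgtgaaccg
Tnfrsf11a: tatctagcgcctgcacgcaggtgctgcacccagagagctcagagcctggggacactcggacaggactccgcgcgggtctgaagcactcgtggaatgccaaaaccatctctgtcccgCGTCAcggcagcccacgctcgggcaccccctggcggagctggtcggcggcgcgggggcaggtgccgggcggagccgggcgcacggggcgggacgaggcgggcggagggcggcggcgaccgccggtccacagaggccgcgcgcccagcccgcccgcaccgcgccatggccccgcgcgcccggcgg

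Both strands of each window were searched for the CRE core TGACG, the AP-1 motif TGANTCA, the NF-κB consensus, the RUNX motif TGTGGT, the STAT motif TTCNNNGAA and the TATA box TATAAA. The Tnfsf11 window held 1 match, TATAAA on the opposite strand starting at position -32 from the gene's start, a motif that 13.6% of 32851 promoter windows hold. It held 0 matches to the CRE core, which 20.8% of windows hold, and 0 to the AP-1, NF-κB, RUNX and STAT motifs, which 7.81%, 8.46%, 16.8% and 8.30% hold. The Tnfrsf11a window held 1 match, the CRE core on the opposite strand at position -134 from the start used for the window. It was also richer in CpG, with 43 CpG dinucleotides against 7 in Tnfsf11, where the median window has 7. The G and C content was 76.7% for Tnfrsf11a and 61.7% for Tnfsf11, against a median of 52.7%. Much of the hormonal control of mouse Tnfsf11 is known to act through enhancers far outside such a window.

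IL-1β was compared with vehicle first. The signal of Tnfsf11 on 1419083_at was 198.9 with IL-1β and 10.9 with vehicle, a log2 ratio of at least 2.18, or at least 4.52-fold higher. Of 6431 genes above the floor on both arrays, 15 had a ratio above this bound, and of 399 other genes at the floor with vehicle 11 had a higher bound. On 1451944_a_at the bound was at least 0.72, because its signal with IL-1β stood closer to the floor. Of the 3 genes, 1 was at least 2-fold higher, Tnfsf11, and 0 were at least 2-fold lower, where 1.72% of 6964 genes were higher and 0.56% lower.

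Tnfrsf11b, the decoy receptor gene, was close to the floor throughout. Probe set 1449033_at had a signal of 52.7 with IL-1β, indomethacin and iloprost, 63.7 with IL-1β and indomethacin, 78 with IL-1β and 35.5 with vehicle. Its other probe set, 1418309_at, was below the floor on all 4 arrays, from 12.2 to 24.9, and gives no ratio. With IL-1β against vehicle the ratio of 1449033_at was at least 0.83, a bound that does not reach 2-fold, and 129 of the 6431 genes had a ratio above it. On the scale as deposited, where the median gene was itself brighter by 0.23, that bound was at least 1.05. For dim probe sets, those above the floor with a mean signal under 113.2, ratios of probe sets of the same gene had an SD of 0.27, a measure of noise within an array that leaves out differences between dishes.

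Tnfrsf11a, the receptor gene, was above the floor on every array in both probe sets. Probe set 1419214_at read 53.7 with both drugs, 52.2 with indomethacin, 54.6 with IL-1β and 62.3 with vehicle. For 1430259_at the signals were 53.8 with both drugs, 41.2 with indomethacin, 46.1 with IL-1β and 64.4 with vehicle. Both probe sets were brightest with vehicle. Relative to the median gene, 1419214_at was lowest with IL-1β alone, over a span of 0.42, and 1430259_at with IL-1β and indomethacin, at -0.72 against vehicle. With IL-1β against vehicle the log2 ratios were -0.42 and -0.71, or 1.55 and 2.65 times the SD of dim probe sets. On the scale as deposited they were -0.19 and -0.48. Markers of macrophages, the cells in which RANK is best known, had a median ratio of -0.05 for IL-1β against vehicle, with 6 of 10 below the median gene. Their summed signal was 25582 with IL-1β and 21711 with vehicle on arrays that themselves differ in brightness by 0.23. Their part in the RANK values was not tested.

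Indomethacin, which blocks prostanoid synthesis, came next, as the dish with IL-1β and indomethacin against that with IL-1β alone. Arrays do not measure prostanoids. Tnfsf11 on 1419083_at had a signal of 23.8 with indomethacin and 198.9 with IL-1β alone, a log2 ratio of at most -2.26, or at least 4.78-fold lower. Of 6501 genes above the floor on both arrays, 2 had a ratio below that bound, and of 329 other genes at the floor with indomethacin 2 had a lower bound, Il11 and Stc1. For 1451944_a_at, at 12.4 with indomethacin and 72.5 without, the bound was at most -0.80. Tnfrsf11a stood at 0.08 and -0.01 in its 2 probe sets and Tnfrsf11b at -0.14, all within 1 SD of dim probe sets, 0.26. Of the 3 genes, 1 was at least 2-fold lower and 0 were higher, where 0.664% of 6932 genes were lower and 0.245% higher. Tnfsf11 was below the floor both with indomethacin and with vehicle, so it has no ratio between those dishes. With the floor at the 40th percentile, a signal of 19.3, that ratio was at least 0.23, and with 16 added to each signal in place of a floor it was 0.49.

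Adding iloprost to IL-1β and indomethacin was the third comparison. On 1419083_at the Tnfsf11 signal was 165.7 with iloprost and 23.8 without, a log2 ratio of at least 2.13, or at least 4.38-fold higher, and 9 of 6414 genes measured on both arrays had a ratio above this bound. Of 383 other genes at the floor without iloprost, 7 had a higher bound. On 1451944_a_at the bound was at least 0.95. Tnfrsf11b was at -0.28, 1.09 times the SD of dim probe sets, and Tnfrsf11a at 0.03 and 0.38. Tnfsf11 was the 1 gene of the 3 at least 2-fold higher and 0 were lower, where 1.98% of 6986 genes were higher and 3.19% lower. This ratio and the indomethacin ratio share the array with IL-1β and indomethacin, and the IL-1β and indomethacin ratios share the IL-1β array.

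With both drugs against IL-1β alone, Tnfsf11 was above the floor on both arrays. Its signals of 165.7 with both drugs and 198.9 with IL-1β on 1419083_at gave a log2 ratio of -0.12, and those of 73.3 and 72.5 on 1451944_a_at one of 0.15. The 2 probe sets thus had opposite signs. The brighter was within the SD of 0.21 over all probe sets above the floor, and the dimmer within that of dim probe sets, 0.27. Against vehicle, the dish with both drugs had a Tnfsf11 ratio of at least 2.05, and 1 of the 3 genes was at least 2-fold higher and 0 lower, where 2.72% of 6983 genes were higher and 3.34% lower. For IL-1β and indomethacin against vehicle, 2 of the 3 had a ratio and 0 passed 2-fold, where 1.32% of 6804 genes were higher and 0.323% lower. Tnfrsf11b stood at -0.43 with both drugs against IL-1β alone, 1.60 times the SD of dim probe sets, and Tnfrsf11a at 0.12 and 0.36. Of the 3 genes, 0 were past 2-fold with both drugs against IL-1β alone, where 0.95% of 7050 genes were higher and 2.37% lower.

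**Figure D2:**
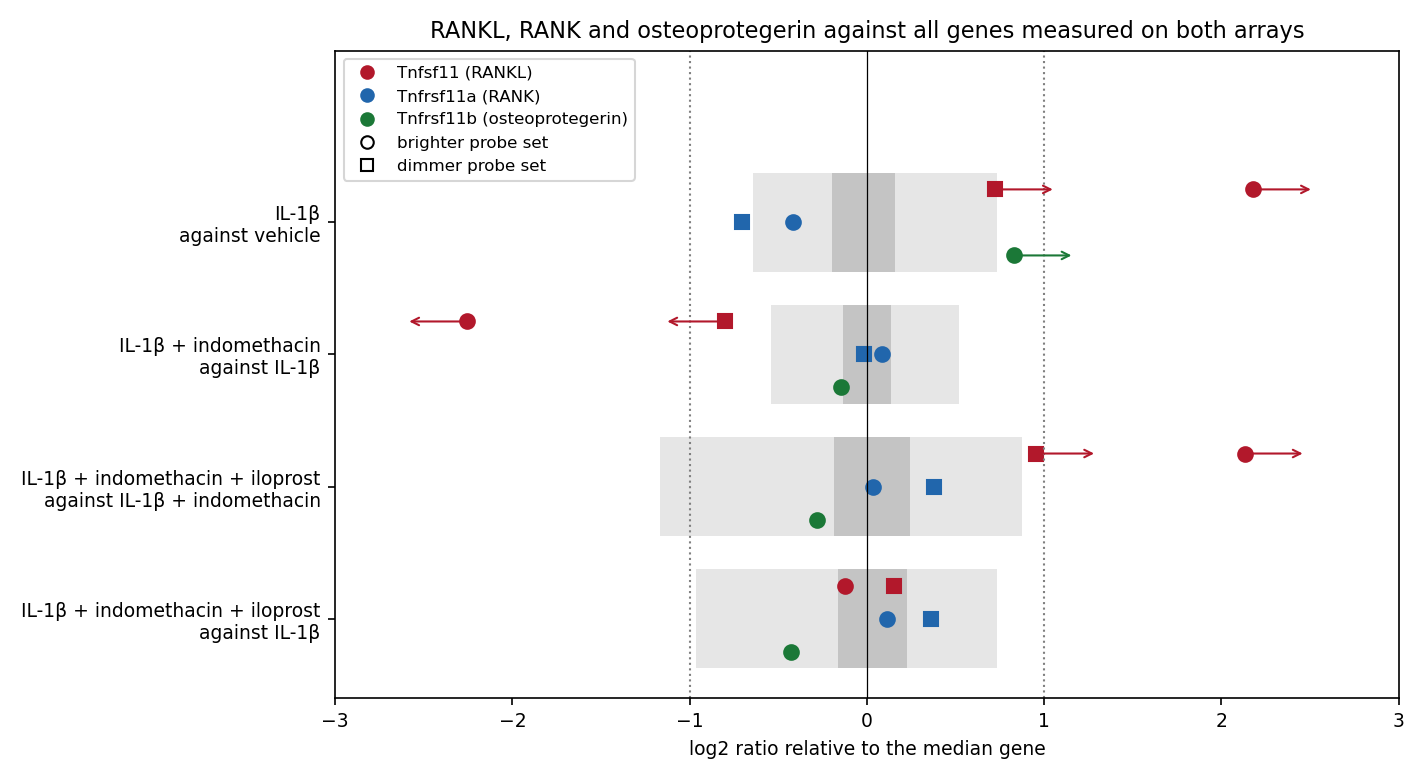
Log2 ratios relative to the median gene for each probe set with a ratio, in 4 comparisons. Circles are the brighter and squares the dimmer probe set of a gene, arrows mark bounds, dotted lines 2-fold, and grey bars the middle 50% (dark) and 95% (light) of genes above the floor on both arrays. Tnfsf11 lies outside the 95% bar with its brighter probe set in the first 3 comparisons, at 2.18, -2.26 and 2.13, and near 0 in the last.

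The balance of ligand and decoy was followed as the Tnfsf11 ratio minus the Tnfrsf11b ratio, in which the shift of the median gene cancels. It was at most -2.11 for indomethacin added to IL-1β and at least 2.41 for iloprost added to IL-1β and indomethacin. The first is a ligand-to-decoy change of at least 4.32-fold lower and the second of at least 5.33-fold higher. In both, Tnfsf11 is at the floor on the array with indomethacin, and a floored signal does not follow that array's brightness. With quantile-normalised arrays these bounds were at most -2.14 and at least 2.52. For both drugs against IL-1β alone the difference was 0.30. Against vehicle no bound can be given at this floor, since both genes were below it there. Where Tnfrsf11b was measured with vehicle, the difference for IL-1β against vehicle was at least 1.35 with quantile-normalised arrays, at least 2.23 with the floor at the 40th percentile, and 2.13 with 16 added in place of a floor. These are differences of ratios, and the amounts of the 2 transcripts cannot be set against each other from different probe sets.

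Genes with a profile like that of Tnfsf11 were found by the root mean square distance of their 4 log2 signals, each profile set to a mean of 0, among 4688 genes that reached the 70th percentile, 113.2, on at least 1 array. The 6 nearest were Pkdcc at 0.07, Il11 at 0.13, Stc1 at 0.18, Rdh10 at 0.19, Kcne4 at 0.20 and Medag at 0.20. Pkdcc, a secreted kinase, had signals of 325.1 with both drugs, 70.3 with indomethacin, 347.1 with IL-1β and 66 with vehicle. Il11, a cytokine of the IL-6 family, had 189.9 with both drugs, 33.6 with indomethacin, 247.4 with IL-1β and 20.1 with vehicle. Like Tnfsf11, Il11 and the glycoprotein hormone gene Stc1 were below the floor on 2 arrays, which pulls their floored profiles together. Within a distance of 0.2 there were 5 genes for Tnfsf11 and 201 of 4689 for Tnfrsf11b. The nearest to Tnfrsf11b were Nlrp3, Dnajb6, Clec4n, Malat1, Slc25a37 and Ccl6, at 0.07 to 0.08, and its floored signal spanned 1.05 on the log2 scale, or 0.83 relative to the median gene. For Tnfsf11 the span relative to the median gene was 2.26. At a fixed distance a flatter profile has more genes near it, so the counts of 5 and 201 do not show which pattern is rarer.

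**Figure D3:**
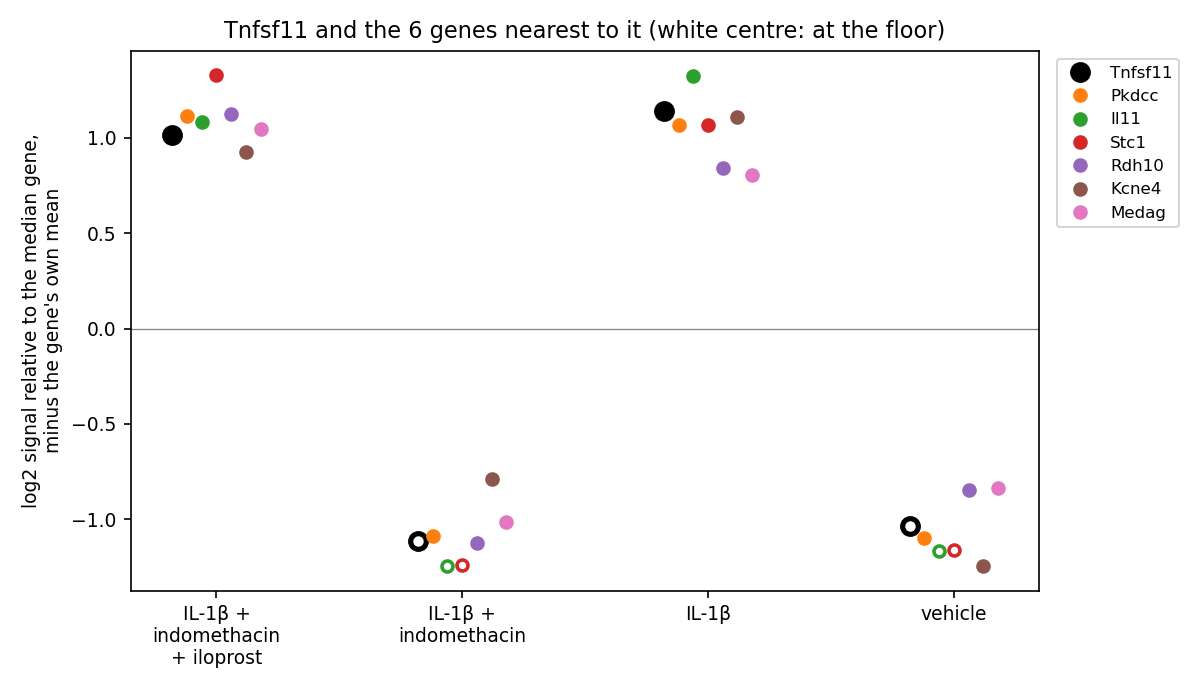
Log2 signal relative to the median gene, minus each gene's own mean over the 4 arrays, for Tnfsf11 (black) and the 6 genes nearest to it, 1 array per treatment. White centres mark signals at the floor. All 7 genes are above their mean with IL-1β and both drugs, and with IL-1β alone, and below it on the other arrays.

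The ligands, receptors and enzymes upstream of Tnfsf11 were next. Of 17 measured with IL-1β against vehicle, 6 were higher by 2-fold or more and 1 was lower, where 1.72% of all genes were higher and 0.56% lower. Their median was 0.34 against -0.02 for all genes. Among them were the gp130 cytokine genes Lif, at least 3.81, Il6 at 3.71 and Il11, at least 2.49, and the inducible cyclooxygenase gene Ptgs2 at 2.83. The prostaglandin E2 receptor gene Ptger2 was at a bound of at least 1.57 and the vitamin D receptor gene Vdr at least 1.27. Lifr, the LIF receptor gene, was the lower one, with signals of 123.1 with IL-1β and 211.1 with vehicle. It fell short of 2-fold on the scale as deposited, at -0.78, and with quantile-normalised arrays, at -0.99. With 16 added in place of a floor Lifr was at -0.92, and averaged over its probe sets at -0.47.

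With indomethacin, 1 of the 17 was at least 2-fold higher than with IL-1β alone and 2 were lower, with a median of -0.09 against 0.00 for all genes. Of all genes, 0.245% were higher and 0.664% lower. The lower ones of the list were Il11, at most -2.57, and Vdr, at most -1.35. The higher one was Ptger4, another prostaglandin E2 receptor gene, with signals of 785.7 with indomethacin and 379.4 with IL-1β alone. Il6 was at -0.30 and Lif at -0.80. With iloprost added, 3 of 17 were higher and 4 lower, where 1.98% of all genes were higher and 3.19% lower, with a median of 0.01 against 0.04. Il11 was at least 2.33 higher, Vdr at least 1.84 and Il1r1, which encodes the IL-1 receptor, stood at 1.02, and at 0.99 with the floor at the 40th percentile and 0.93 without a floor. The lower ones were Tnf at -2.67, Lifr at -2.17, Ptger4 at -1.79 and Ptgir, the receptor gene for iloprost, at -1.36. Lifr was at -0.73 in this comparison when all its probe sets were averaged.

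Vdr, whose protein turns on Tnfsf11 in mouse stromal cells, had signals of 135.8 with both drugs, 12.7 with indomethacin, 105.8 with IL-1β and 29.7 with vehicle. It was above the floor on the same 2 arrays as Tnfsf11. Of the 8 measured transcription factors of the list on Tnfsf11, Vdr and Crem, a cAMP-responsive factor, were past 2-fold in the first 3 comparisons and 0 others were at this floor and scale. Of all genes, 1.72% were higher with IL-1β, 0.664% lower with indomethacin and 1.98% higher with iloprost. At the floor of the 65th percentile, Vdr was short of 2-fold in all 3, with bounds of 0.03, -0.13 and 0.67. Cebpd, a factor of the acute-phase response, was at 0.85 with IL-1β, and at 1.07 as deposited. Crem had signals of 375.5 with both drugs, 90.6 with indomethacin, 232.9 with IL-1β and 68 with vehicle. Its ratio stood at 1.55 for IL-1β, -1.21 for indomethacin and 2.04 for iloprost. Averaged over its probe sets, Crem was at 0.95 with IL-1β and -0.84 with indomethacin. Creb1, the constitutive cAMP-responsive factor, was at -0.03, 0.63 and -0.31, and Stat3 at 0.12, -0.36 and 0.11.

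RANK signals through TRAF adaptors, IκB kinases and MAP kinases to NF-κB, AP-1 and Nfatc1, the main transcription factor of osteoclasts. Of these genes 24 were measured with IL-1β and with indomethacin, and 0 passed 2-fold in either comparison. Few genes of the array did: 1.72% were higher and 0.56% lower with IL-1β, and 0.245% and 0.664% with indomethacin. In a list of this size, 0 or 1 past 2-fold is no result about the list. With the floor at the 40th percentile 1 of the RANK signalling genes passed it, the adaptor gene Gab2 at -1.01 with indomethacin. With iloprost 1 of 25 was higher, Nfatc1 at 1.08, and 0 were lower, where 1.98% of all genes were higher and 3.19% lower. The median was 0.03 against 0.04 for all genes. Nfatc1 had signals of 166.1 with both drugs, 78.3 with indomethacin, 95.7 with IL-1β and 102.6 with vehicle, so its highest signal was the one with both drugs. With a constant of 16 added in place of the floor, that ratio was 0.94. Traf6, the adaptor that RANK needs, was between 35.8 and 51.5 on the 4 arrays.

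Osteoclast precursors also need immunoreceptor co-stimulation, and 9 of its genes were measured. None passed 2-fold with IL-1β, where 1.72% of all genes were higher and 0.56% lower, or with indomethacin, where 0.245% and 0.664% were. With iloprost 1 was lower, the adaptor gene Lcp2 at -1.32, where 3.19% of all genes were lower and 1.98% higher. The median was -0.24 against 0.04 for all genes. Averaged over its probe sets, Lcp2 was at -0.67. With iloprost 8 of the 9 were below the median gene, among them Blnk at -0.87 and the receptor gene Trem2 at -0.17. The 1 above it was the signalling subunit gene Tyrobp at 0.04, which is also on the list of macrophage markers. Of the 10 macrophage markers, 7 were below the median gene with iloprost and 3 above it, with a median of -0.10. The part of macrophages in the co-stimulation values was not tested. With both drugs against vehicle 2 were at least 2-fold lower, Lcp2 and Blnk, each at -1.07, where 3.34% of all genes were lower.

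Genes that osteoclasts use to form and to resorb bone were present in part. Of 11 measured 0 passed 2-fold with IL-1β, where 1.72% of all genes were higher and 0.56% lower. Of 12 measured 0 did with indomethacin, where 0.245% of all genes were higher and 0.664% lower. The gelatinase gene Mmp9 was at 0.80 with IL-1β, with signals of 641.2 with both drugs, 1255 with indomethacin, 1167 with IL-1β and 573 with vehicle. It was past 2-fold with IL-1β as deposited, at 1.03, and with IL-1β and indomethacin against vehicle, at 1.05. With iloprost Mmp9 was at -0.98, at -1.01 with the floor at the 40th percentile, and at -1.07 averaged over its probe sets. With iloprost 1 of 13 was lower, Mitf, a transcription factor of the lineage, at -1.23, where 3.19% of all genes were lower and 1.98% higher. The median was -0.03 against 0.04 for all genes. Acp5, which encodes the tartrate-resistant acid phosphatase, was between 426.8 and 535.3 on the 4 arrays, and the protease gene Ctsk between 1145 and 1196. The calcitonin receptor gene Calcr, a marker of mature osteoclasts, was at most 16.7, and Oscar, an osteoclast co-receptor gene, at most 15.4. Csf1, which encodes M-CSF, had signals of 1524 with both drugs, 2616 with indomethacin, 2183 with IL-1β and 1385 with vehicle, and a ratio of -0.79 for iloprost. Ratios of Csf1r lay between -0.10 and 0.01 in the 4 comparisons.

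Of 5 measured repressors of osteoclast formation, Id3 was higher with IL-1β at 1.37, lower with indomethacin at -1.06, and at 0.97 with iloprost. The shares of all genes were 1.72% higher and 0.56% lower with IL-1β, and 0.245% and 0.664% with indomethacin. With iloprost they were 1.98% and 3.19%. Id2 was at 0.94 with IL-1β, and at 1.16 as deposited. Bcl6 was at -0.66 with IL-1β and Id1 at -0.78 with iloprost. With both drugs against vehicle Id3 was at 1.27, where 2.72% of all genes were higher and 3.34% lower. Irf8, which holds macrophages back from the osteoclast fate, had signals of 57.6 with both drugs, 163.1 with indomethacin, 133.5 with IL-1β and 105.2 with vehicle, and was at -1.51 with iloprost. The median of the 5 was 0.44 for IL-1β, -0.18 for indomethacin and -0.31 for iloprost, against -0.02, 0.00 and 0.04 for all genes. Of 10 markers of macrophages, cells that express Irf8 and Mitf, 7 were below the median gene with iloprost, with a median of -0.10. Fcgr1 was at -1.46, Adgre1 at -0.77, Aif1 at -0.74, Mrc1 at -0.39, Csf1r at -0.07 and Cd14 at 0.62. Their summed signal was 21653 with iloprost and 21378 without. Cd14 gave 6562 and 4254 of these sums, so their nearness does not show that the other markers were level. The part of macrophages in the values of Irf8 and Mitf was not tested.

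**Figure D4:**
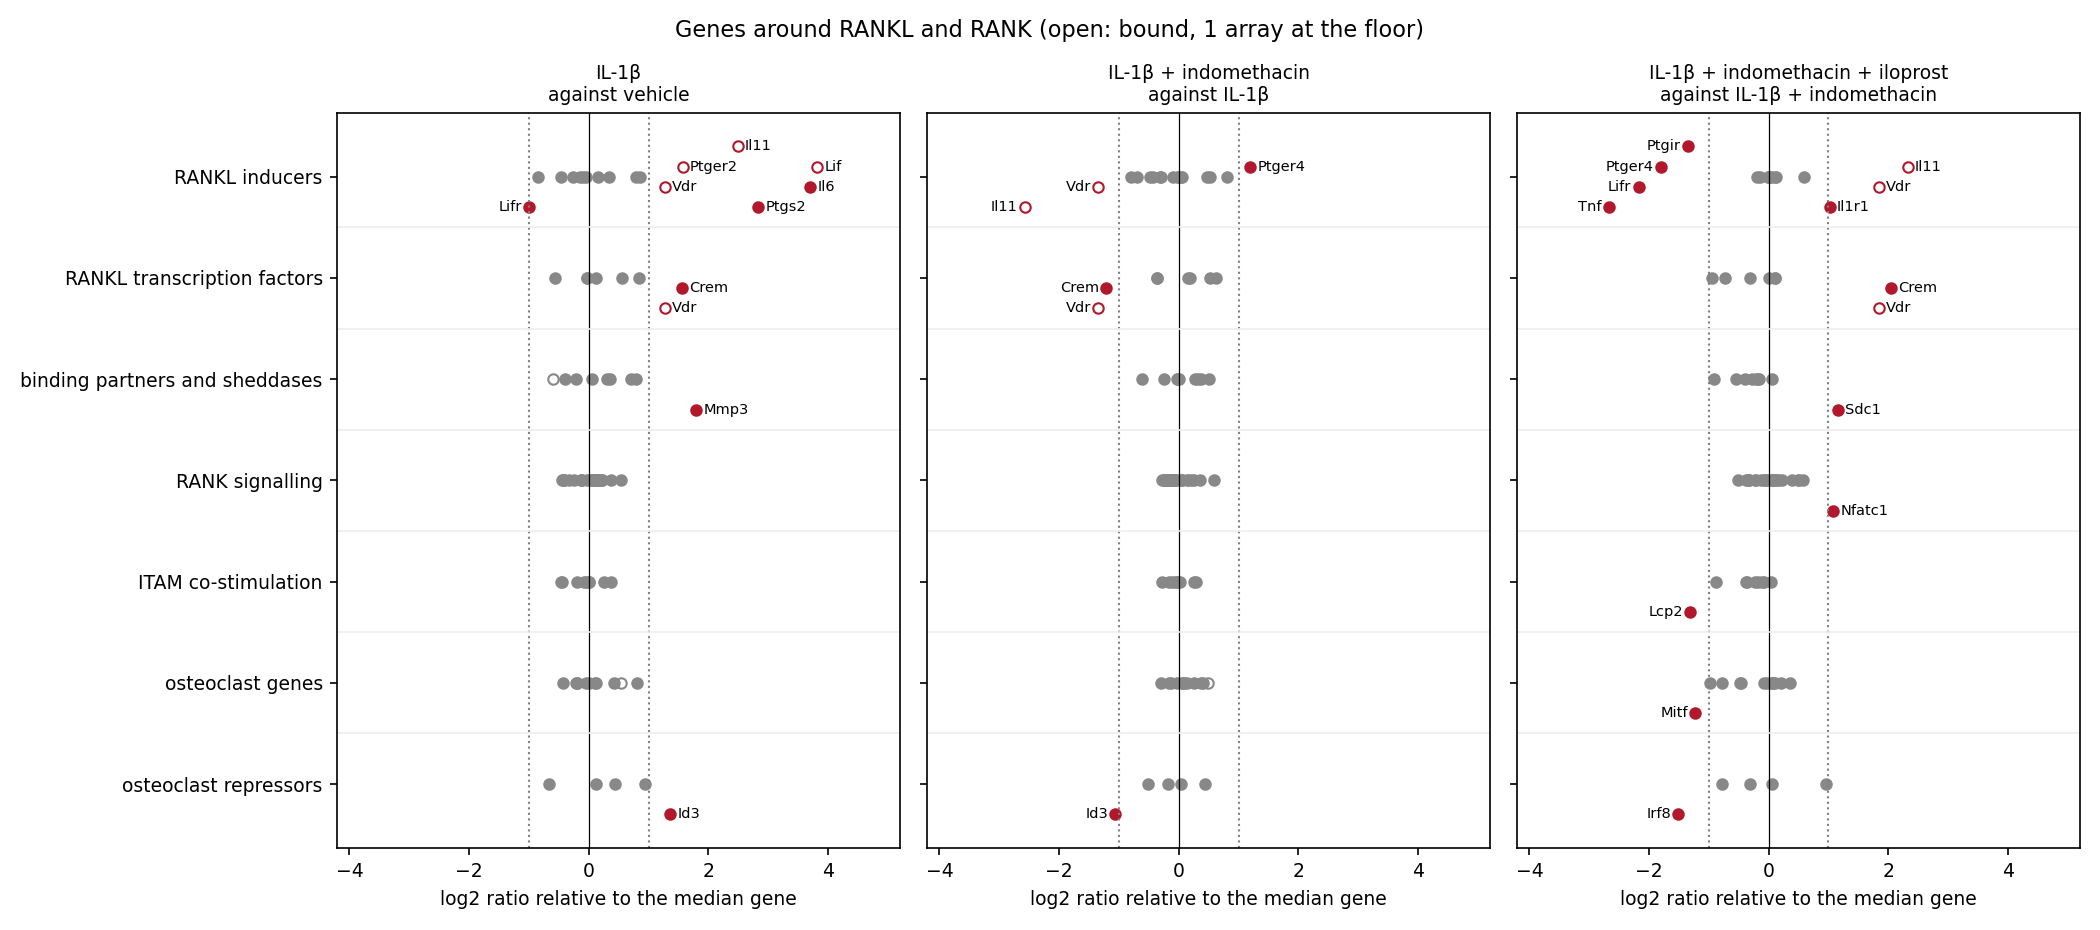
Log2 ratios relative to the median gene for measured genes of 7 lists around RANKL and RANK, in 3 comparisons. Each point is a gene, red past 2-fold (dotted lines), open where 1 array was at the floor and the ratio is a bound. At the floor and scale plotted, genes of the RANK signalling, co-stimulation and osteoclast lists stay within 2-fold with IL-1β and with indomethacin. Mmp9 passed it with IL-1β as deposited and Gab2 with indomethacin at the 40th percentile floor. Of all genes, 1.72% were higher and 0.56% lower with IL-1β, and 0.245% and 0.664% with indomethacin.

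Other partners of RANKL and osteoprotegerin, and the proteases that can shed RANKL, were measured for 9 genes. Lgr4, another receptor of RANKL, is not analysed here. With IL-1β 1 was higher, the stromelysin gene Mmp3 at 1.80, with a median of 0.31 against -0.02 for all genes, and with indomethacin 0 were past 2-fold. The shares of all genes were 1.72% higher and 0.56% lower with IL-1β, and 0.245% and 0.664% with indomethacin. With iloprost 1 was higher, Sdc1, a heparan sulfate proteoglycan gene, at 1.16, and 0 were lower at this floor, with a median of -0.21 against 0.04. There, 1.98% of all genes were higher and 3.19% lower. The sheddase genes Adam17, Adam10 and Mmp14 were at -0.91, 0.06 and -0.39 with iloprost. TRAIL, encoded by Tnfsf10, also binds osteoprotegerin, and its signals were 4.9 with both drugs, 42.5 with indomethacin, 32.9 with IL-1β and 48.4 with vehicle. With iloprost Tnfsf10 had a bound of at most -0.19, which was at most -1.18 with the floor at the 40th percentile, and without a floor its ratio was -1.49.

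Of 13 other TNF superfamily ligands with a probe set, 3 were above the floor on any array, Tnf, Tnfsf4 and Tnfsf10. None of these 3 was counted past 2-fold with IL-1β against vehicle, where Tnf was at -0.84 and the bounds were at most -0.71 for Tnfsf4 and at most -0.59 for Tnfsf10. With iloprost, Tnfsf4, which encodes the OX40 ligand, was at least 1.16 higher and Tnf lower at -2.67. Of all genes, 1.98% were higher and 3.19% lower with iloprost, and 1.72% and 0.56% with IL-1β. Without a floor Tnfsf4 was at 0.95, and at the 65th percentile floor it had no ratio. Of 21 other TNF receptors 8 were above the floor on any array. Tnfrsf12a, the TWEAK receptor gene, was higher with IL-1β at 1.12, and at 0.65 averaged over its probe sets. With indomethacin 0 receptors were past 2-fold, where 0.245% of all genes were higher and 0.664% lower. Cd40 was lower with iloprost at -2.46. Tnfrsf9 had a bound of at least 0.46 with iloprost, and of at least 1.39 with the floor at the 40th percentile.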

How the data were processed

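The authors deposited 1 linear intensity value per probe set and array, from 0 to 7857. Labelling and hybridisation followed the manufacturer's standard protocol, per the labels. Summarising software, background correction and scaling are not stated in the sources used here. Each of 4 groups has 1 array, which limits the precision, and there is no test.

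Of 22690 probe sets, 20380 name 1 gene in GEO's platform annotation, 691 name several, 1606 none, and the other 13 are control probe sets that name 1 gene and were left out with the rest of the 64 controls. The symbols of all 3 genes matched the RefSeq table of GRCm38.p6 by gene number. Signals were floored at 37.6, the 50th percentile of all values, before the log2 transform. Each gene is represented by the probe set of highest mean log2 signal. Ratios are relative to the median gene. Genes count as higher or lower at 2-fold, bounds included.

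The genes, the 16 lists and the rules were chosen with earlier results of these data known. Of 206 list entries 181 had a probe set. Named are all probe sets of the 3 genes, the 6 genes nearest to each gene that spans at least 1 on the log2 scale, up to 4 genes past 2-fold per list and comparison, and set receptors and factors. Vdr, Creb1, Stat3 and other single list genes within 2-fold or beyond that number were named after their values were seen. Motifs were chosen with the promoter sequences in view. The ratio step was tested on simulated data. Python 3.11.15, numpy 2.4.6 and pandas 2.3.3 were used.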

Additional observations from a re-analysis of the deposited data

How the results depend on the processing

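No paired analysis was possible because each group has 1 sample, and for the same reason no replicate could be left out. The 6 alternatives reprocess the same 4 arrays, which the 4 Tnfsf11 ratios past 2-fold share, so they add no replicate. With signals of 198.9 or 165.7 against 23.8 or 10.9 on 1419083_at, the direction could hardly change. Tnfsf11 kept its direction in all 24 values of these ratios, and stayed past 2-fold in 21. The other 3 came from the floor at the 65th percentile, a signal of 87, where the bounds are weaker by construction. At that floor IL-1β against vehicle gave 0.94, indomethacin added to IL-1β -1.04, iloprost added to both 0.96, and the dish with both drugs against vehicle 0.85. With the floor at the 40th percentile these were 3.13, -2.91, 2.76 and 2.99, and the ligand minus decoy differences for indomethacin and iloprost were -2.77 and 3.07. Without a floor and with 16 added to each signal, IL-1β against vehicle gave 2.79 and both drugs against vehicle 2.67. Averaged over both probe sets, Tnfsf11 was at 1.46, -1.54, 1.54 and 1.46 in the same order of 4 comparisons, and the ligand minus decoy differences were -1.53 and 1.69. Tnfrsf11b averaged in this way, with a probe set always at the floor, was at 0.32 for IL-1β, 0.30 for indomethacin and 0.15 for both drugs, each against vehicle, and at -0.16 for both drugs against IL-1β. On the scale as deposited, IL-1β against vehicle gave 2.40 for Tnfsf11, 1.05 for Tnfrsf11b and -0.19 for Tnfrsf11a.

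Genes past 2-fold numbered 159 with IL-1β, 63 with indomethacin and 234 with both drugs against IL-1β, and at the 65th percentile floor 97, 40 and 155. As deposited, 94.7% of those called with IL-1β were higher, against 75.5% relative to the median gene. For indomethacin these shares were 13.0% and 27.0%, and for both drugs against IL-1β 16.7% and 28.6%. At that floor Tnfrsf11a and Tnfrsf11b were below it on every array and gave no ratio. No other ratio of the 3 genes moved by more than the SD between probe sets of a gene, and no other ligand minus decoy difference by more than the SD of a difference of 2 such ratios.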
